A study of Rattus norvegicus with 24 samples.

Results

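The MHC class II genes present peptides of engulfed proteins to helper T cells, and 8 of them were followed here in rat liver and spleen after 5 days of the alkylating drug cyclophosphamide. The members were found by the gene symbol in the probe set annotation: the invariant chain Cd74, the class II chains RT1-Da, RT1-Db1, RT1-Ba and RT1-Bb, the peptide exchange factors RT1-DMa and RT1-DMb, and the transactivator Ciita. They are 8 of 14201 genes named by a probe set of their own, and 14 of the 30980 probe sets on the array. Where a gene had several probe sets, the one with the highest mean over all 24 arrays was used and the others served as a check. Wild-type Sprague-Dawley rats labelled male, 46 to 49 days old, were given cyclophosphamide by mouth at 40 mg/kg/day or vehicle, and each of the 2 treatments was run with and without a wood stick in the cage. There were 3 rats in each of the 4 groups, liver and spleen came from the same animals, and RNA of each organ was hybridised to 1 Affymetrix array. Levels are log2 intensities, and a change is a difference of log2 intensities.

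Class II chains pair as alpha and beta in the endoplasmic reticulum, where Cd74 fills the peptide groove and steers the pair to endosomes. There Cd74 is cut away, by cathepsin S among others, and the DM pair exchanges its last fragment for a peptide. B cells, dendritic cells and macrophages carry these molecules. Kupffer cells and dendritic cells are the main such cells in liver, and B cells the most numerous in spleen. Ciita binds no DNA itself and is recruited by the factors RFX, CREB and NF-Y, which sit on the X and Y boxes before each class II gene. The class II chains are among the most variable genes between individuals, and Sprague-Dawley is an outbred stock.

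Promoter windows from RefSeq (build GRCr8) are shown for the members whose 300-base promoter entry held an X box core or a reverse CCAAT motif near the start site, since these boxes are what the class II genes have in common upstream. The table held 6 of the 8 members, RT1-DMb and Ciita not being among them. The windows are written 5′ to 3′ on the gene's strand, with capitals for the X box core (ACNGATG) and for the Y box (CTGATTGG), or for ATTGG alone where the longer Y box was not matched.
RT1-Da: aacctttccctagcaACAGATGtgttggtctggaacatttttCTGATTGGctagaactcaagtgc
RT1-Db1: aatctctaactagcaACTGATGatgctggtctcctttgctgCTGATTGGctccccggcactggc
RT1-Bb: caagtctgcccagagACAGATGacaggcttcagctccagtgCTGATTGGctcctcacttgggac
RT1-Ba: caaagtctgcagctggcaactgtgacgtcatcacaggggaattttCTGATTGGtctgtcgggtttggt
RT1-DMa: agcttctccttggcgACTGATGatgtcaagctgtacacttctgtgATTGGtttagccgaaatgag
They lie at chr20:4515321-4515385 (plus strand) for RT1-Da, chr20:4560223-4560286 (minus strand) for RT1-Db1, chr20:4604160-4604223 (minus strand) for RT1-Bb, chr20:4576966-4577033 (plus strand) for RT1-Ba and chr20:4712380-4712444 (minus strand) for RT1-DMa. The core and the Y box were 20 bases apart in RT1-Da and 19 in both RT1-Db1 and RT1-Bb, while in RT1-DMa the core and ATTGG were 23 bases apart. RT1-Ba had the Y box and no match to the core in its 300 bases, and the Cd74 entry matched CCAAT alone. Over both strands of all 33469 promoters in the table, the core was found in 10.2%, the Y box in 3.50%, CCAAT in 37.5% and core and Y box together in 0.29%. The Y box contains ATTGG, which is CCAAT read on the other strand, so those counts overlap.

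The arrays matched their organ labels. Albumin (Alb), made by hepatocytes, read 13.13 to 13.50 on the liver arrays and 4.88 to 9.12 on the spleen arrays, and the B cell receptor chain Cd79b read 11.53 to 12.18 in the spleens of vehicle rats. Liver arrays had 4924 to 6060 blank probe sets, and the one of rat 2003 (drug, no wood) stood apart: its correlation with the remaining livers averaged 0.847, where no other liver was under 0.906, and it had the highest number of blanks. Spleen arrays had 1021 to 1920 blanks. Over 1500 blanks were found in 1001, 1003 and 1005, which are all of the vehicle rats without wood, and in 2005 (drug, no wood), against at most 1183 in the other spleens. A sex-linked transcript of rat 2005 went against its label in both organs: Xist, transcribed from an inactive X chromosome, read 10.92 in its liver and 10.07 in its spleen, against at most 5.51 in either organ of the other 11 rats. The Y-linked Eif2s3y read 9.01 and 9.66 in this rat, within the range of the others. Uty, also Y-linked, read 9.24 and 9.64, above the highest of the others (8.88 in liver and 9.54 in spleen). The rat was used as labelled. Without it the drug lowered 4 members in liver and 4 in spleen, where RT1-Db1 was lost (adjusted p = 0.0746), and the drug effect differed between the organs for 7. The 8 main probe sets of the members had a value on every array.

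In the untreated state all 8 members were lower in liver than in spleen. The difference between the organs of vehicle rats ran from -2.73 for RT1-Da to -3.65 for RT1-Bb, and 8 of 8 passed the test, where 59.2% of all 12474 genes tested in both organs were called lower in liver. The test throughout was limma on group means, with Benjamini-Hochberg adjustment over all genes tested and a threshold of 0.05. The median of all genes was itself -0.72 between the organs; it moved to -0.29 with quantile normalisation and -0.13 with median centring, and the share of all calls that were lower in liver went from 74.5% to 61.4% and 54.6%. The members kept differences of -2.81 to -3.63 and of -2.14 to -3.06 under these scalings. In drug rats the same difference widened to between -2.58 for Ciita and -5.39 for Cd74 and RT1-Bb, and again 8 of 8 passed, against 59.4% of all genes.

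In liver, cyclophosphamide lowered Cd74 and 3 of the 4 class II chains. Cd74 fell 5.84-fold, RT1-Da 4.53-fold, RT1-Ba 3.66-fold and RT1-Db1 1.89-fold, and no member rose. These are 4 of 8 members, where 0.647% of the 12683 genes tested in liver were called lower with the drug. The median change of the 8 was -1.28, beside -0.02 over all genes, and 7 of the 8 had an unadjusted p under 0.05. In whole organs, fewer class II cells and less class II RNA per cell cannot be told apart.

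**Figure D1:**
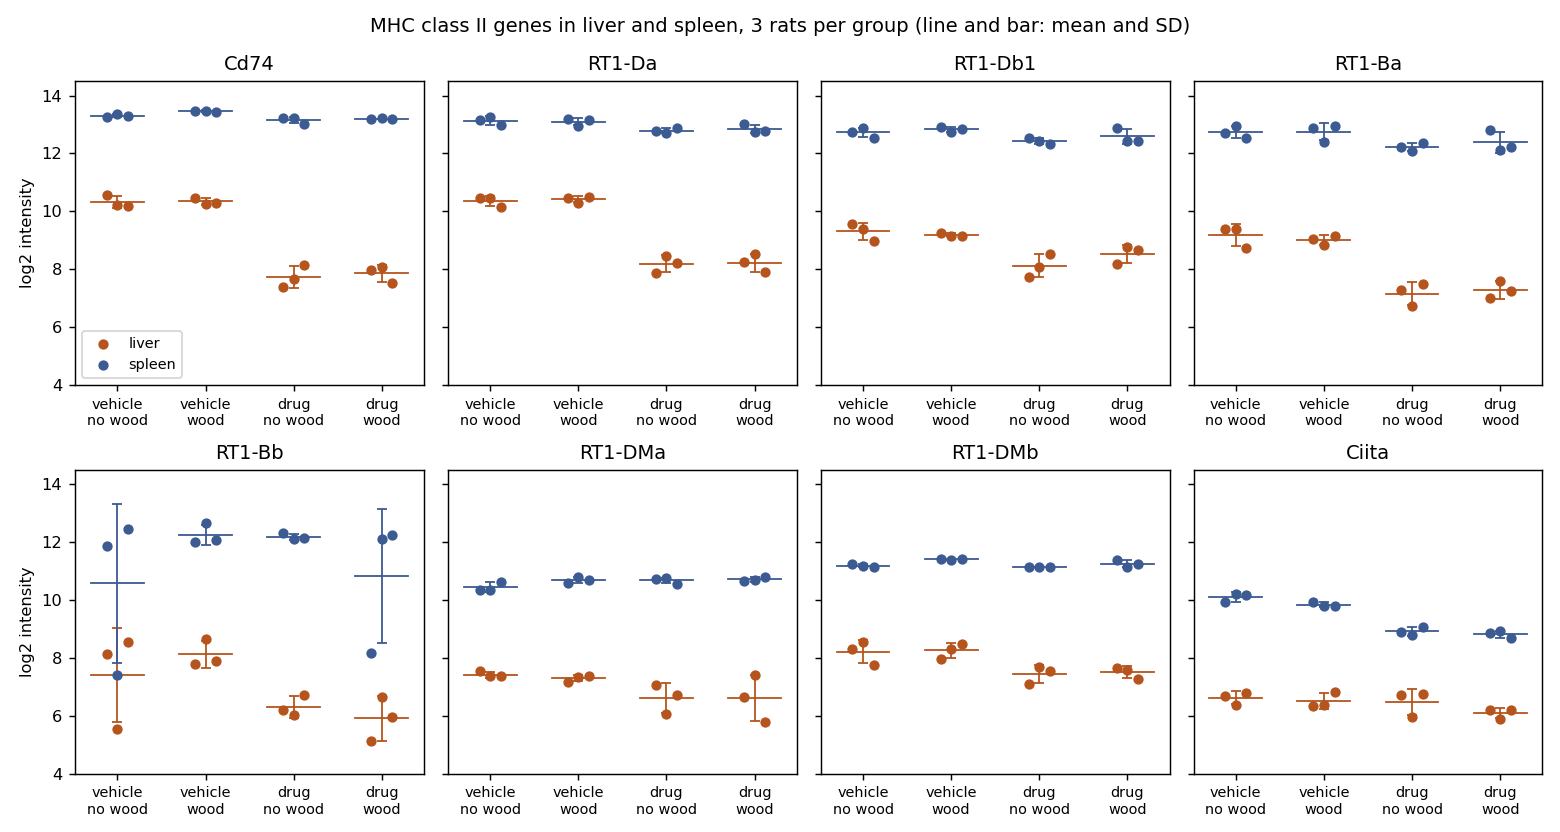
Log2 intensity of the 8 MHC class II genes on each array of liver and spleen, by group, with 3 rats per group (points), the mean (line) and the SD (bar). In liver, Cd74 sits between 10.18 and 10.57 in vehicle rats and between 7.38 and 8.13 in drug rats, while in spleen it sits between 13.03 and 13.48 in all rats and Ciita is the member with separate groups by a wide margin.

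Cd74 in liver read 10.57, 10.21 and 10.18 in the vehicle rats without wood and 10.47, 10.26 and 10.30 in those with wood. In drug rats it read 7.38, 7.65 and 8.13 without wood and 7.96, 8.07 and 7.53 with wood. The 6 drug rats lay more than 2 log2 units below the 6 vehicle rats, with no overlap. The change was -2.55 ± 0.15 (SE), with a 95% interval for the fold of 4.62 to 7.39 and an adjusted p of 8.28e-05.

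RT1-Da, the alpha chain of the D molecule, read 10.47, 10.46 and 10.14 and then 10.45, 10.29 and 10.50 in the vehicle livers without and with wood. In the drug livers it read 7.88, 8.47 and 8.22 without wood and 8.23, 8.54 and 7.90 with wood. All drug rats were again below all vehicle rats, and the change was -2.18 ± 0.14 (adjusted p = 0.000101). Its partner, the beta chain RT1-Db1, ran from 8.98 to 9.55 (median 9.20) in vehicle livers and from 7.74 to 8.78 (median 8.36) in drug livers. The groups of RT1-Db1 did not overlap, and its change of -0.92 ± 0.16 (adjusted p = 0.038) was less than that of RT1-Da. The call on RT1-Db1 was lost without any 1 rat other than 1005 or 2005, with adjusted p from 0.053 to 0.101, and these include rat 2003, whose liver array stood apart (0.065).

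RT1-Ba, the alpha chain of the B molecule, read 9.40, 9.40 and 8.74 in vehicle livers without wood and 9.03, 8.82 and 9.16 with wood. The drug livers read 7.27, 6.72 and 7.48 without wood and 7.01, 7.60 and 7.24 with wood, all below the lowest vehicle rat. The change was -1.87 ± 0.18 (adjusted p = 0.00287). A second RT1-Ba probe set, 1377334_at, gave -0.95 (adjusted p = 0.265). The beta chain RT1-Bb changed by -1.65 ± 0.50 and did not pass (adjusted p = 0.186), with vehicle rat 1003 at 5.54 and the other vehicle livers at 7.80 to 8.67, against 5.13 to 6.73 in drug livers. Without rat 1003 its change was -2.12 (adjusted p = 0.0379).

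The DM pair and Ciita did not pass in liver. RT1-DMb ran from 7.77 to 8.54 in vehicle livers and from 7.11 to 7.69 in drug livers, without overlap, at -0.75 ± 0.17 (adjusted p = 0.0813). RT1-DMa ran from 7.17 to 7.54 in vehicle and from 5.80 to 7.40 in drug livers, at -0.75 ± 0.26 (adjusted p = 0.234). Of the drug livers, 4003 at 7.40 and 2001 at 7.06 were near or within the vehicle range of RT1-DMa. Ciita stood at 6.33 to 6.84 in vehicle and 5.90 to 6.76 in drug livers, with 4 of the 6 drug livers below the lowest vehicle liver, and its change was -0.28 (95% interval -0.65 to 0.10; adjusted p = 0.499). In 5 of 8 members, all drug livers lay below all vehicle livers, against 1.82% of the genes with 12 values.

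Cd74, RT1-Da and RT1-Ba were lower with the drug in the livers of each housing. Without wood 3 members passed, Cd74 at -2.60, RT1-Da at -2.17 and RT1-Ba at -2.02, where 0.0946% of genes were called lower. With wood 2 passed, Cd74 at -2.49 and RT1-Da at -2.19, where 0.0473% were called lower, and RT1-Ba stood at -1.72 (adjusted p = 0.105). RT1-Db1 passed in neither housing. Its means were 9.31 in vehicle and 8.12 in drug livers without wood, and 9.19 and 8.54 with wood. The calls on Cd74, RT1-Da and RT1-Ba in all 6 drug against all 6 vehicle rats held without each of the 12 rats in turn.

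In spleen, cyclophosphamide lowered the transactivator Ciita, and lowered Cd74 and 3 of the 4 class II chains by less. Ciita fell 2.15-fold, and RT1-Ba, RT1-Da, RT1-Db1 and Cd74 fell 1.35-fold, 1.23-fold, 1.20-fold and 1.15-fold. These 5 of 8 members stand beside 28.1% of all 13614 genes tested in spleen that were called lower, and 55.0% called in either direction. The median change of the 8 was -0.24, against -0.02 over all genes, and no member rose.

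Ciita in spleen read 9.92, 10.22 and 10.18 in vehicle rats without wood and 9.93, 9.81 and 9.80 with wood. The drug rats read 8.90, 8.78 and 9.08 without wood and 8.86, 8.91 and 8.69 with wood. The highest drug rat was below the lowest vehicle rat, and the change was -1.10 ± 0.08 (adjusted p = 3.07e-06). A second Ciita probe set, 1369214_a_at, gave -0.60 ± 0.18 (adjusted p = 0.0205), and the Ciita call held under every alternative run and without each rat.

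Cd74 in spleen read 13.27, 13.36 and 13.29 without wood and 13.48, 13.47 and 13.42 with wood in vehicle rats. Drug rats read 13.21, 13.24 and 13.03 without wood and 13.19, 13.21 and 13.18 with wood. The groups did not overlap, by a margin of hundredths of a log2 unit, and the change was -0.21 ± 0.05 (adjusted p = 0.00796). The brightest probe set on each vehicle spleen array read 13.49 to 13.73, so Cd74 lay near the top of the range of these arrays. With quantile normalisation the Cd74 change was -0.05 (adjusted p = 0.346), and in a fit over all 24 arrays its adjusted p was 0.152. Cd74 and Ciita were the 2 of 8 members whose spleen groups did not overlap, against 15.1% of the genes with 12 values.

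RT1-Da ran from 12.95 to 13.26 in vehicle and from 12.72 to 13.00 in drug spleens, at -0.30 ± 0.08 (adjusted p = 0.00806, and 0.151 with quantile normalisation). RT1-Db1 ran from 12.55 to 12.90 and from 12.33 to 12.89, at -0.27 ± 0.10 (adjusted p = 0.0414). RT1-Ba ran from 12.41 to 12.96 and from 12.09 to 12.80, at -0.44 ± 0.14 (adjusted p = 0.027). The ranges of these 3 chains overlap, and in each of them drug rat 4001 had the highest value of its treatment. The RT1-Ba call was lost without rat 1003, 2003, 3001, 3005, 4003 or 4005, with adjusted p from 0.0605 to 0.0632. The RT1-Db1 call was lost without rat 1001, 1003, 2003, 2005, 3001, 3005, 4003 or 4005, with adjusted p from 0.0714 to 0.0941. With a term for spleens with over 1500 blanks in the fit, 3 members passed and RT1-Ba (0.124) and RT1-Db1 (0.0523) did not.

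The DM pair did not pass in spleen. RT1-DMb ran from 11.15 to 11.42 in vehicle and from 11.12 to 11.38 in drug spleens, at -0.10 ± 0.05 (adjusted p = 0.144, and 0.046 with quantile normalisation). RT1-DMa ran from 10.34 to 10.81 and from 10.57 to 10.79, at 0.13 ± 0.08 (adjusted p = 0.181). RT1-Bb gave 0.09 with a 95% interval from -2.01 to 2.20, which is too wide to show a direction. By housing, RT1-Da at -0.34 and Ciita at -1.19 passed without wood, where 22.4% of genes were called lower, and Cd74 at -0.27 and Ciita at -1.02 passed with wood, where 18.5% were.

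The size of the drug effect differed between the organs for 7 of the 8 members, tested as the change in liver minus the change in spleen over all 24 arrays. Of these, 6 differed towards a greater fall in liver, where 18.4% of all genes were called in that direction. The difference was -2.34 ± 0.16 for Cd74 (adjusted p = 2.16e-08), -1.88 ± 0.16 for RT1-Da and -1.44 ± 0.24 for RT1-Ba. It was -0.87 ± 0.28 for RT1-DMa, -0.65 ± 0.18 for RT1-DMb and -0.65 ± 0.19 for RT1-Db1 (adjusted p = 0.0206, 0.00853 and 0.0144). Ciita differed the other way, by 0.83 ± 0.19 (adjusted p = 0.00232), where 14.7% of all genes were called. In vehicle spleens Cd74, RT1-Da, RT1-Ba and RT1-Db1 lay at 12.41 to 13.48, where the brightest probe set of each array read 13.49 to 13.73, and the part of this in the smaller changes in spleen was not tested. Of the 8 members the transactivator had the largest called fall in spleen and the smallest change in liver. Ciita read 6.33 to 6.84 in vehicle livers, where the median probe set with a value read 6.50 to 6.53. The part of this level in its small liver change was not tested.

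**Figure D2:**
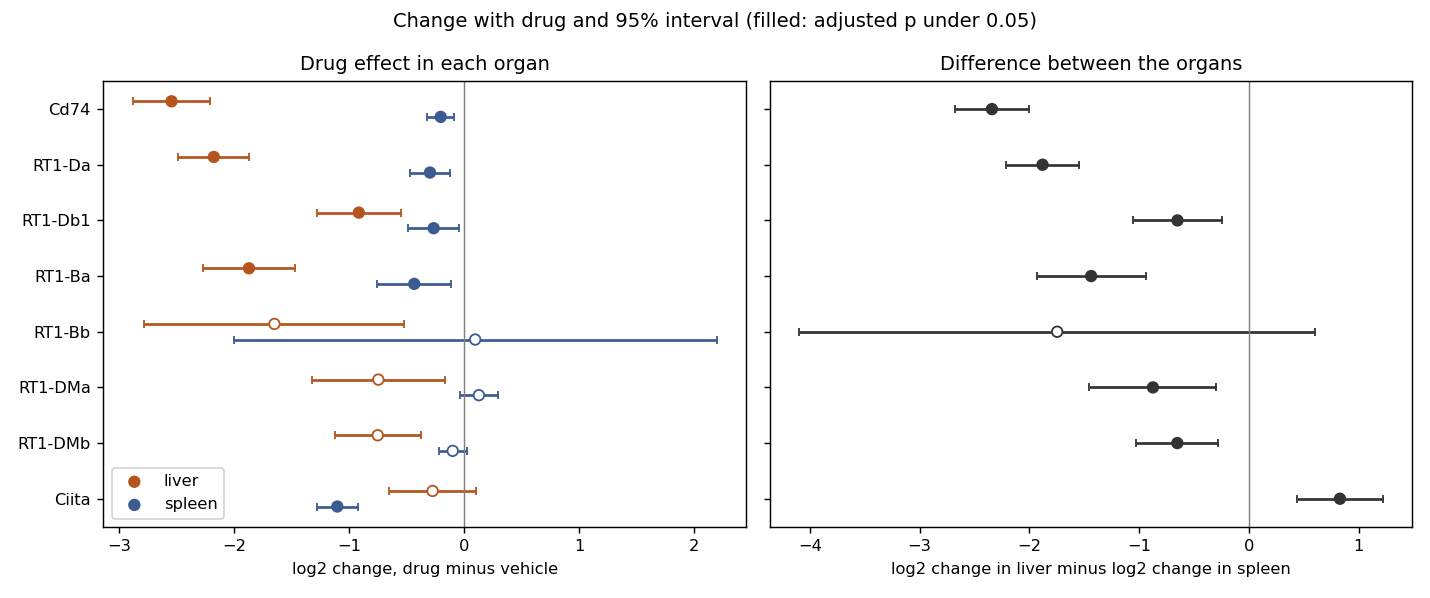
Left: log2 change with drug (6 drug minus 6 vehicle rats) and 95% interval for each member in liver and spleen. Right: the change in liver minus the change in spleen, with filled points where the adjusted p is under 0.05; Cd74 lies at -2.34, Ciita at 0.83, and the interval of RT1-Bb spans 0.

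RT1-Bb did not pass in that fit, at -1.75 ± 1.12 (adjusted p = 0.25). Liver and spleen of a rat are paired, and with the animal as a replicate block it did (standard error 0.55; adjusted p = 0.0367), making 8 members of 8. RT1-DMa did not pass without rat 1001 (adjusted p = 0.053) or 2003 (0.0543), nor with the spleen division by blanks as a term (0.0641). RT1-Db1 did not pass with that term either (0.0536).

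Some probe sets of the B and D chains showed a spread between rats of the same group that few others on the array had. On RT1-Bb probe set 1371033_at the vehicle spleens read 12.39, 13.03 and 9.61 without wood (rats 1001, 1003 and 1005) and 12.48, 8.74 and 12.37 with wood (3001, 3003 and 3005). The drug spleens read 3.23, 3.03 and 3.81 without wood (2001, 2003 and 2005) and 12.37, 7.64 and 4.29 with wood (4001, 4003 and 4005). So drug rat 4001 lay at the level of vehicle rats 1001, 3001 and 3005, and 8 log2 units above rat 4005 of its own group. Its SD within groups, 2.47, ranked 1 among the 13280 probe sets at or above the median spleen level, whose median SD was 0.16. The kept RT1-Bb probe set 1371065_at ranked 2 (SD 1.81), RT1-Db1 probe set 1370382_at ranked 3 (1.78) and RT1-Ba probe set 1377334_at ranked 8 (1.49).

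On some of these probe sets the same rats were highest in both organs. The 5 rats highest on 1371033_at in spleen, 1001, 1003, 3001, 3005 and 4001, were also the 5 highest in liver, at 9.20, 9.80, 8.95, 8.61 and 7.00 against 3.53 to 6.05 in the others. The same 5 were highest in spleen on RT1-Db1 probe set 1370382_at, at 10.09 to 11.10 against 4.90 to 7.78, a probe set that is blank on every liver array. They were also the 5 highest on the main probe sets of RT1-Db1 and RT1-Ba in spleen, but in liver 4 of them were, with 3003 in place of 4001, which was among the 2 lowest livers on RT1-Ba at 7.01. On RT1-Ba probe set 1377334_at, 2 of the 5 highest and 0 of the 2 lowest rats were shared between the organs. Of these 5 rats 4 received vehicle and 1 the drug.

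The kept RT1-Bb probe set showed another order. Rats 1003 and 4001 read 7.42 and 8.16 in spleen, against 11.86 to 12.65 in the other rats, and were also the lowest in liver, at 5.54 and 5.13. Rat 1003 alone was low on RT1-Ba probe set 1377334_at in spleen, at 7.06 against 11.28 to 12.96. The 2 probe sets of RT1-Bb therefore gave different drug effects in spleen, -5.70 ± 1.29 (adjusted p = 0.00488) on 1371033_at and 0.09 on 1371065_at. The genotype of the rats at these loci was not analysed here, and the part of these differences between rats in the drug effects of RT1-Bb, RT1-Db1 and RT1-Ba was not tested. Cd74, RT1-DMa, RT1-DMb and RT1-Da had SDs within groups of 0.06 to 0.12 in spleen, below the median of 0.16. The main probe sets of RT1-Db1 and RT1-Ba had SDs of 0.17 and 0.27 there.

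**Figure D3:**
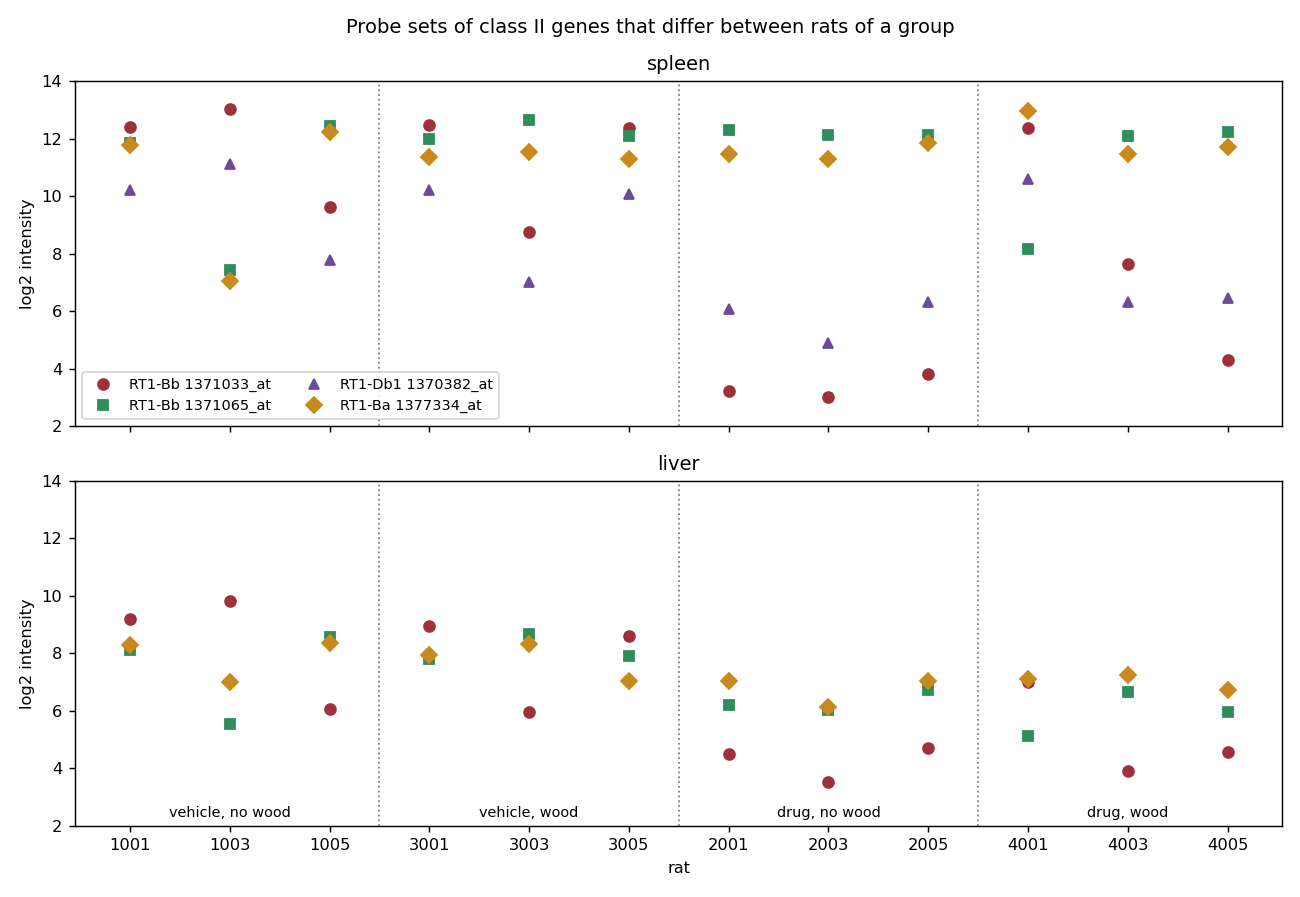
Log2 intensity of 4 class II probe sets in the spleen (top) and liver (bottom) of each rat, with dotted lines between groups. Rats 1001, 1003, 3001, 3005 and 4001 are highest on RT1-Bb 1371033_at in both organs, and rats 1003 and 4001 are lowest on RT1-Bb 1371065_at in both; RT1-Db1 1370382_at has no value in liver.

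The wood stick changed no member at the threshold. In liver limma called 0 of 8 members (0 with an unadjusted p under 0.05) and 0.0% of all genes. The smallest p was that of Ciita, at -0.24 ± 0.17 (adjusted p = 0.887). In spleen it called 0 of 8 (2 with an unadjusted p under 0.05), against 12.1% of all genes. The smallest p was that of RT1-DMb, which stood at 11.15 to 11.24 in vehicle spleens without wood and 11.39 to 11.42 with wood, a change over both treatments of 0.16 ± 0.05 (adjusted p = 0.075). It passed with median centring (0.0391), with eBayes trend and robust (0.0319) and with an offset of 64 (0.0444). The vehicle spleens without wood are the 3 with over 1500 blanks, so their housing and the division by blanks cannot be told apart within vehicle rats. The drug effect did not differ between housings for any member by limma, with 0 of 8 called and 0 with an unadjusted p under 0.05 in either organ, against 0.0% of genes in liver and 0.705% in spleen. The smallest p was that of RT1-Db1 in liver (0.54 ± 0.33; adjusted p = 0.95) and of RT1-Bb in spleen (-3.02 ± 1.88; adjusted p = 0.515).

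The listed promoter factors are subunits of RFX and NF-Y, Creb1 and Zfp143. Of these 7 genes, 0 were called in liver (median 0.04), where 0.647% of all genes were called lower. In spleen 3 of them fell (median -0.23), where 28.1% of all genes were called lower. Rfx5, a subunit of RFX, stood at 7.87 to 8.45 in vehicle and 7.77 to 8.45 in drug livers, and fell by 0.54 ± 0.06 in spleen (adjusted p = 4.72e-05). Nfyc, a subunit of NF-Y, fell by 0.31 in spleen, and Zfp143, which is not among the X and Y box factors named above, by 0.42.

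Genes upstream of Ciita include the interferon gamma receptor and its signalling chain. In liver 2 of 11 fell and 0 rose, where 0.647% of all genes were called lower. Irf8, a transcription factor of dendritic cells, B cells and macrophages, read 8.05 to 8.29 in vehicle and 6.25 to 6.98 in drug livers, a change of -1.50 ± 0.14 (adjusted p = 0.00221), and the receptor chain Ifngr1 fell by 0.40. In spleen 3 of 13 rose (Jak2 by 0.65, Ifngr2 by 0.44 and Ifngr1 by 0.40) and 2 fell, Irf8 by 0.34 and Irf2, where 26.9% of all genes were called higher and 28.1% lower. Irf1, which acts on the Ciita promoter after interferon gamma, gave -0.35 in liver and -0.23 in spleen and did not pass.

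Most measured genes of the loading compartment rose in spleen, 11 of 15, where 26.9% of all genes were called higher. Of the other 4, 2 fell and 2 were not called, and the median was 0.35. Ctsl and Lgmn, endosomal proteases, rose by 1.18 and 1.16, Ctss, the cathepsin that trims Cd74, rose by 0.30 ± 0.06 (adjusted p = 0.00249), and Cd37, a tetraspanin of B cells, fell by 2.39. In liver 1 of 15 was called, where 0.647% of all genes were called lower. This was Ctss, which read 10.14 to 10.64 in vehicle and 9.28 to 9.94 in drug rats, a fall of 0.73 ± 0.13 (adjusted p = 0.038). Of Cd4 and the costimulatory genes together, 0 of 6 were called in liver by limma. In spleen 2 of 7 rose, Cd4 by 1.16 and Cd86 by 0.96, and 2 fell, Cd40 by 2.74 and Cd83. Over all genes in spleen, 26.9% were called higher and 28.1% lower.

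Macrophage markers fell in liver and rose in spleen, and B cell markers fell in spleen. Of all genes tested in liver, 0.647% were called lower, which stands beside the liver counts that follow. In liver 5 of 11 macrophage markers fell and 0 rose, with a median of -0.80. Their summed intensity was 7571 to 9548 in vehicle and 3755 to 6367 in drug rats. The Kupffer cell lectin Clec4f fell by 0.84 ± 0.14, Csf1r by 0.92 ± 0.12 and C1qa by 0.96 ± 0.14 (adjusted p = 0.0341, 0.0159 and 0.0221). Of 10 dendritic cell markers tested in liver 1, Irf8, fell, with summed intensities of 791 to 1052 and 580 to 890. Of the defining dendritic markers, Itgax had a value on 4 of 6 vehicle and 1 of 6 drug livers, Clec9a on 3 and 1, and Flt3 on 5 and 3. None of 9 B cell markers was called in liver by limma, with summed intensities of 816 to 1109 and 563 to 912; Cd79b had a value on 5 vehicle and 3 drug livers, at most 5.13, and Ms4a1 stood at 5.34 to 7.38 over all livers. The part of these cells in the fall of the class II genes in liver was not tested.

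In spleen all 11 B cell markers fell, with a median of -3.53 and summed intensities of 23565 to 31041 in vehicle and 2695 to 4004 in drug rats. Cd79b fell by 5.20 ± 0.29 to 5.39 to 7.51, and Ms4a1 fell by 5.10 ± 0.30, to 5.95 to 8.14. Of 11 macrophage markers 10 rose, with a median of 0.86 and summed intensities of 22072 to 29293 and 43454 to 49821, among them Mertk by 1.52, the red pulp factor Spic by 1.39 and Cd163 by 1.18. Of 12 dendritic cell markers 6 fell and 2 rose: Flt3 fell by 1.10 and Ly75 by 1.06, while Fscn1 rose by 0.87, and summed intensities were 7852 to 8880 and 6176 to 7783. Beside these counts, 28.1% of all genes in spleen were called lower, 26.9% higher and 55.0% in either direction. The summed intensity of the 8 class II members was 40660 to 45241 in vehicle and 35039 to 37287 in drug spleens, and 4093 to 5256 and 1220 to 1795 in livers. The part of the change in cell types in the spleen values was not tested.

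**Figure D4:**
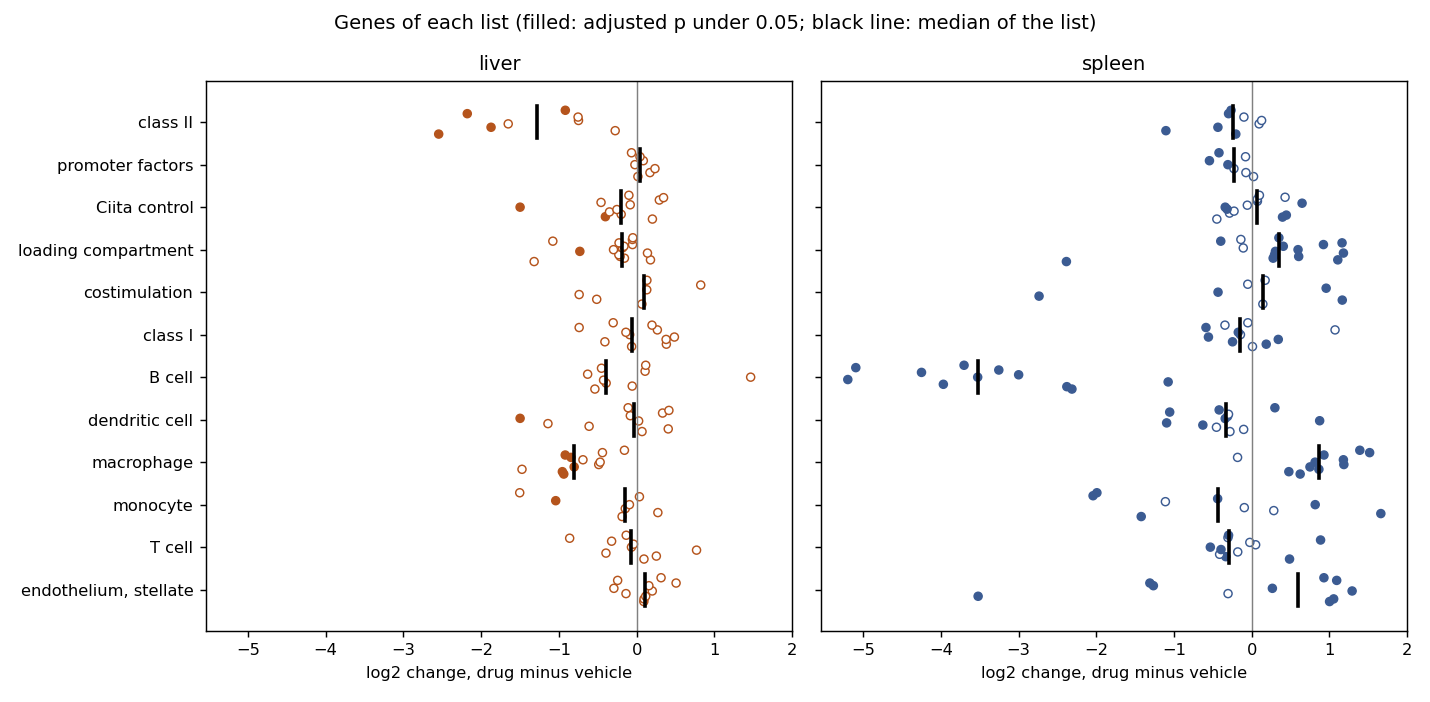
Log2 change with drug of each tested gene, by list, in liver (left) and spleen (right), with filled points for adjusted p under 0.05 and a black line at the list's median. In liver the class II median is -1.28 and the macrophage median -0.80; in spleen the class II median is -0.24, the B cell median -3.53 and the macrophage median 0.86.

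The genes whose levels ran most like those of Cd74 were different in the 2 organs. Over the 12 livers RT1-Da was first of 10798 genes with a value on every array (Pearson r = 0.99) and RT1-Ba sixth (0.97). The 6 genes outside the members were Alas2, which starts haem synthesis in erythroid cells, Irf8, the complement protease Cfd, Arhgap30, Zfp36l2 and Tmsb4x, with r from 0.96 to 0.99, and of deviations from the group means from 0.24 to 0.79. RT1-Db1 ranked 35, RT1-DMb 75, RT1-DMa 356, RT1-Bb 376 and Ciita 2167. Over the 12 spleens the 6 were Rpf2, a ribosome assembly factor, the ribosomal proteins Rpl27a, Rpl26 and Rpl7a, and Rcan3 and Phf2, with r from 0.97 to 0.99 and of deviations from 0.85 to 0.94. The other members ranked between 1597 (RT1-Db1) and 6846 (RT1-DMa) of 12836 there. The SD of Cd74 in spleen was 0.11 in drug rats without wood and 0.01 to 0.04 in the other groups. In that group rat 2005, whose spleen array had 1798 blanks, read 13.03, and its group mates read 13.21 and 13.24. The part of this array in the spleen correlations was not tested. All points share the arrays and the drug groups, so these correlations are descriptions and have no p.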

How the data were processed

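Liver and spleen RNA of 12 rats was measured on 24 arrays, 3 rats per group and organ; rats are separate animals per the labels. The deposited values are intensities on a log10 scale made by the authors: the base was inferred, since without the lowest and highest 1% they span 2143-fold as log10 and would span 10.1-fold as log2. The sources used here do not say how probes were summarised and scaled. All were converted to log2, and the 10.5% blank cells were left missing. Of several probe sets of a gene, that with the highest mean log2(intensity + 16), blanks at 0, was kept; genes with a value in every group were tested.

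limma 3.58.1 in R 4.3.3 (lmFit, contrasts.fit, eBayes) was fitted to 4 group means per organ, and to 8 over 24 arrays between organs, with Benjamini-Hochberg adjustment over all genes at 0.05. The drug effect is the mean over both housings. Simulated data with known changes were used to test the fit. Precision is limited by the number of arrays.

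The liver and spleen of a rat share its number, which pairs them: the correlation of their deviations from the group means ran from -0.06 to 0.17 over 10530 genes and in 11 of 12 rats exceeded that with every group mate. Alternatives covered scaling, offsets, filters, probe sets, eBayes settings, array weights, each rat left out, the animal as a block and the division of spleen arrays by blanks. The members and gene lists, written from general knowledge, were chosen with earlier results of these data known, so the counts are descriptions. Named are all members, of each list up to 3 called genes by size with a fixed set of markers, and the 6 genes most like Cd74 in each organ. No probe set alone names RT1-DOa, RT1-DOb, RT1-Ha or Xcr1. Promoters are those of the RefSeq table.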

Additional observations from a re-analysis of the deposited data

Results flagged for a closer look

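The drug effect differed between liver and spleen for 7 of the 8 class II genes by a test of the difference itself (limma over 24 arrays, adjusted p under 0.05). The change in liver minus that in spleen was -2.34 for Cd74, which stood at -2.55 in liver and -0.21 in spleen. It was -1.88 for RT1-Da (-2.18 and -0.30) and -1.44 for RT1-Ba (-1.87 and -0.44). It was -0.65 for RT1-Db1 (-0.92 and -0.27), -0.87 for RT1-DMa (-0.75 and 0.13) and -0.65 for RT1-DMb (-0.75 and -0.10). Ciita alone went the other way, at 0.83 (-0.28 and -1.10). Ciita lay around the median of the probe sets with a value in vehicle livers, at 6.33 to 6.84 against a median of 6.50 to 6.53. The part of this level in the Ciita difference was not tested. In vehicle spleens Cd74, RT1-Da, RT1-Ba and RT1-Db1 lay near the top of the range of the arrays, at 12.41 to 13.48 against 13.49 to 13.73 for the brightest probe set, and the part of this in the differences was not tested.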

How the results depend on the processing

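The count of members lower in liver, 4, was 2 with the second probe set of a gene in place of the first, 4 to 6 under the other alternatives, and 3 to 4 without 1 rat. The count in spleen, 5, was 3 with quantile normalisation, with 24 arrays in 1 fit and with the spleen division by blanks as a term, 4 to 5 under the others, and 3 to 5 without 1 rat. The count of members with different drug effects in the organs, 7, ran from 5 to 8 and was 6 to 7 without 1 rat. The animal as a replicate block raised it to 8 by the call on RT1-Bb (adjusted p = 0.0367) and changed no other call. All 8 members were lower in vehicle liver than spleen under every alternative run. The count of wood effects in spleen, 0, was 1 (RT1-DMb) with median centring, with eBayes trend and robust and with an offset of 64; the wood counts in liver and both housing differences stayed at 0 under every alternative run.

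RT1-Ba in spleen turned from -0.44 to 0.24 with the mean of its probe sets, and to 0.91, 1.48 and 0.083 on probe sets 1377334_at, 1392334_at and 1381593_x_at. On 1392334_at and 1381593_x_at the vehicle spleens without wood had 1 value, that of rat 1005, at 3.86 and 7.00. The drug means without wood were 7.02 and 7.65. With wood, where each group had 3 values, the means were 9.40 in vehicle and 9.21 in drug rats on 1392334_at. They were 8.76 and 8.27 on 1381593_x_at. RT1-Bb in spleen turned from 0.09 to -2.80 with the mean of its probe sets, to -5.70 on 1371033_at, and to -0.69, -0.22 and -0.26 without rat 1003, 4003 or 4005 (up to 0.76 without 4001). Its liver minus spleen difference turned from -1.75 to 0.28 and 2.31 with the mean and on 1371033_at. Ciita in liver turned to 1.05 on 1369214_a_at, which is blank on 6 of 12 livers. Its 2 drug values were 7.04 in rat 2003, whose liver array stood apart, and 4.18 in rat 4001. The 4 vehicle values ran from 2.57 to 5.34. The cause of these turns was not tested. RT1-DMb in liver passed among genes at or above the median level (adjusted p = 0.0304), with trend and robust (0.0403), array weights (0.0441) and 24 arrays (0.00126), the last also for RT1-DMa (0.0289).

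The number of all genes called also moved. For the drug in liver, 103, it was 173 to 212 with array weights, offsets, the level filter or trend and robust, 749 with 24 arrays, and 35 to 114 without 1 rat. For the wood stick in spleen, 1647, it was 108 with the division by blanks as a term and up to 2774 with offset 64. Of its calls 824 were lower and 823 higher, against 754 and 1030 with quantile normalisation and 658 and 1159 with median centring. For the housing difference in spleen, 96, it was 592 with array weights and 1013 without rat 2005.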

Other observations

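Genes of the class I pathway present peptides made inside the cell. None of the 11 tested was called in liver by limma (median -0.06), where 0.647% of all genes were called lower. In spleen 4 fell and 2 rose (median -0.15), which is 6 of 11 called where 55.0% of all genes were called in either direction: the peptide transporter Tap1 fell by 0.59, the immunoproteasome subunit Psmb10 by 0.56, and the chaperone Pdia3 rose by 0.34. Summed class I intensity was 18907 to 19686 in vehicle and 18681 to 23378 in drug livers.

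Probe sets 1392334_at and 1381593_x_at of RT1-Ba had a liver value on the array of rat 2003 alone, at 8.05 and 8.39. In spleen they were blank in rats 1001 and 1003, and 1392334_at read 3.86 in rat 1005 and 2.58 in rat 2005, against 9.04 to 9.46 in the other rats. These 4 are the spleen arrays with over 1500 blanks.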
